A study of Mus musculus with 12 samples.

Results

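The genes of the glutamate and GABA receptors were described in 2 fractions of brain cells of aged mice. One was bound by ACSA-2 beads made to capture astrocytes, and the other was the unbound flowthrough. In the levels and comparisons below, astrocytes means the bead-bound fraction, which also held RNA of neuron and oligodendrocyte markers. The members were chosen by gene symbol: every gene of the GABA-A, GABA-B, AMPA, delta, kainate, NMDA and metabotropic glutamate receptor families. The symbols matched 47 of the 41388 genes in the deposited files. They comprised 19 GABA-A subunits, 2 GABA-B subunits, 4 AMPA subunits, 2 delta subunits, 5 kainate subunits, 7 NMDA subunits and 8 metabotropic receptors. RNA sequencing counts from 12 libraries of 8 mice were compared. The first group, KO astrocytes, held 4 libraries of mice labelled Cre+ knockout. The second, WT astrocytes, held 4 libraries of mice labelled Cre- wildtype. The strain of both is given as Bmal fl/fl; ALDH1L1-CreERT2, so by that label the WT mice too carried the floxed Bmal1 alleles. KO flowthrough and WT flowthrough held 2 libraries each, from 2 of the same mice per genotype, made from the cells that the ACSA-2 beads did not bind. Mice of both genotypes were on a C57BL\6 background, received tamoxifen (2 mg per mouse per day for 5 days) by gavage at 2 months of age, and were 20 months old at collection. CreERT2 is a recombinase that acts after tamoxifen, here under the promoter of Aldh1l1, an astrocyte gene. Libraries are called by genotype, mouse number and fraction, and within KO astrocytes values are always given for mice 60, 62, 73 and 132, within WT astrocytes for mice 56, 57, 64 and 78, within KO flowthrough for mice 60 and 132, and within WT flowthrough for mice 56 and 64.

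Glutamate and GABA are the main excitatory and inhibitory transmitters of the brain. AMPA, kainate and NMDA receptors are glutamate-gated cation channels and GABA-A receptors are GABA-gated chloride channels, while the metabotropic glutamate receptors and the GABA-B receptor act through G proteins. Neurons carry nearly all of these receptors; astrocytes are known for a smaller repertoire, including GABA-A, GABA-B and metabotropic glutamate receptors, and the Bergmann glia of the cerebellum for AMPA receptors.

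KO astrocytes had totals of 44.7 to 49.4 M counts (M, mega), WT astrocytes 38.7 to 50.1 M, KO flowthrough 51.2 to 51.6 M, and WT flowthrough 45.3 to 51.2 M. Arntl, which encodes BMAL1, was not lower in the KO libraries. The KO astrocytes had 401, 428, 645 and 628 Arntl counts, against 360, 239, 242 and 374 in WT astrocytes (log2 fold change 0.66 ± 0.19, edgeR adjusted p = 0.473), and 261 and 284 in KO flowthrough and 292 and 217 in WT flowthrough. In astrocytes each KO library thus had more Arntl counts than each WT library, the reverse of a loss, and in flowthrough the genotypes overlapped. The deposited counts do not separate exons, so they do not show whether a part of the gene was deleted, and KO and WT below mean the libraries labelled so. Ddx3y, a Y-linked gene, had 3 counts in KO 73 astrocytes and 1 count in WT 78 astrocytes, against 2176 to 4970 counts in the other libraries, so each astrocyte group held 1 female-type library and the flowthrough groups held none. The levels of 13 astrocyte markers (Aldh1l1, Aqp4, Slc1a2 and others) summed to 11385 to 24099 CPM in KO astrocytes, against 17543 to 22310 CPM in WT astrocytes; KO flowthrough had 4094 to 8310 CPM and WT flowthrough 3114 to 4558 CPM. Aldoc made up the largest part of the astrocyte sum, with means of 9055 CPM in KO astrocytes and 8124 CPM in WT astrocytes. CPM here is the read count relative to the library total, in the usual unit, scaled between libraries by TMM (trimmed mean of M values) over all 12. Among these, 2 libraries stood apart. KO 73 astrocytes had the lowest astrocyte marker sum of the 8 astrocyte libraries (11385 CPM) and the highest microglial marker sum (2739.6 CPM, against 561 to 1149.7 CPM in the other astrocyte libraries). KO 60 flowthrough had the highest astrocyte and neuron marker sums of the 4 flowthrough libraries (8310 and 1680 CPM, against 3114 to 4558 and 566 to 763 CPM in the other flowthrough libraries). Its oligodendrocyte marker sum was also the highest of the 4 (29741 CPM, against 12313 to 15292 CPM in the others). Its microglial sum was the lowest (10727 CPM, against 12413 to 16864 CPM).

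Because BMAL1, the factor targeted in KO mice, binds the E-box CACGTG with its partner CLOCK, the 250 bases before the transcription start were searched for these letters, which read the same on both strands. RefSeq promoter sequences (GRCm38.p6) were present for 32 of the 47 members, with 39 windows. The letters were found in 1 of the 39 windows (2.56%), that of Grin1, against 6.02% of all 32851 windows of the same length. The window of Grin1, the obligatory NMDA receptor subunit, and that of Gabrg1, the member with the smallest p between the genotypes in astrocytes, are shown with the letters CACGTG in capitals. Both genes lie on the minus strand, and both windows are given 5′ to 3′ on that strand, at chr2:25319188-25319437 (Grin1) and chr5:70842618-70842867 (Gabrg1).
Grin1: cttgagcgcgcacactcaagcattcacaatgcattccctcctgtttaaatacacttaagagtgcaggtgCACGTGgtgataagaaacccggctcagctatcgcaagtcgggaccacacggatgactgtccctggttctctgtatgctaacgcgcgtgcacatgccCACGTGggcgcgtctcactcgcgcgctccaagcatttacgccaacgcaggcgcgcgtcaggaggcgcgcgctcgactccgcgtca
Gabrg1: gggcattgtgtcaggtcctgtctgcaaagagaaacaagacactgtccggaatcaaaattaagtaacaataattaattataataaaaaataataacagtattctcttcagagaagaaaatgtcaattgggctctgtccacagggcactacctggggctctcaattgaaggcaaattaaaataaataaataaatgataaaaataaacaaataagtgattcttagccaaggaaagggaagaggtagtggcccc
The Grin1 window held 2 matches, and in the Gabrg1 window these letters do not occur. A match describes the sequence only.

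In astrocytes, levels per transcript length spanned from 0 to 85.8 RPKM (TMM-scaled CPM per kilobase of summed exon length; mean of the 8 astrocyte libraries). Gria1, the AMPA subunit GluA1, had the highest level, 85.8 ± 25.0 RPKM (SD, n = 8), and it was the highest member in each of the 12 libraries. Grm3, a group II metabotropic receptor known from astrocytes, followed with 45.8 ± 8.5 RPKM. Their libraries overlapped: Gria1 ranged from 44.0 to 121.6 RPKM and Grm3 from 35.8 to 62.8 RPKM. The next 8 members were 7 GABA receptor genes and Gria2. Gabrb1, the beta1 subunit of the GABA-A receptor, had 17.8 ± 2.87 RPKM, and its highest library lay below the lowest of Grm3. It was followed by Gabrg1 (15.9 ± 5.04), Gabra2 (14.9 ± 5.15), Gabra4 (11.9 ± 1.89), Gabbr1 (11.8 ± 2.81), Gria2 (10.9 ± 2.33), Gabrd (10.8 ± 3.37) and Gabra6 (9.86 ± 4.27 RPKM). From Gabrb1 down to Gabra6, each neighbour in this order differed from the next by less than the larger of their SDs. In flowthrough the means of the same genes were 17.3 RPKM for Gria1, 13.2 RPKM for Grm3, 4.61 RPKM for Gabrb1 and 3.41 RPKM for Gabrg1. At the low end, Grm6, a receptor of retinal bipolar cells, was at 0 in all 8 astrocyte libraries and Gabrp, Gabrr3, Grin3b, Gabre, Gabrq and Gabrr1 averaged below 0.1 RPKM.

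**Figure D1:**
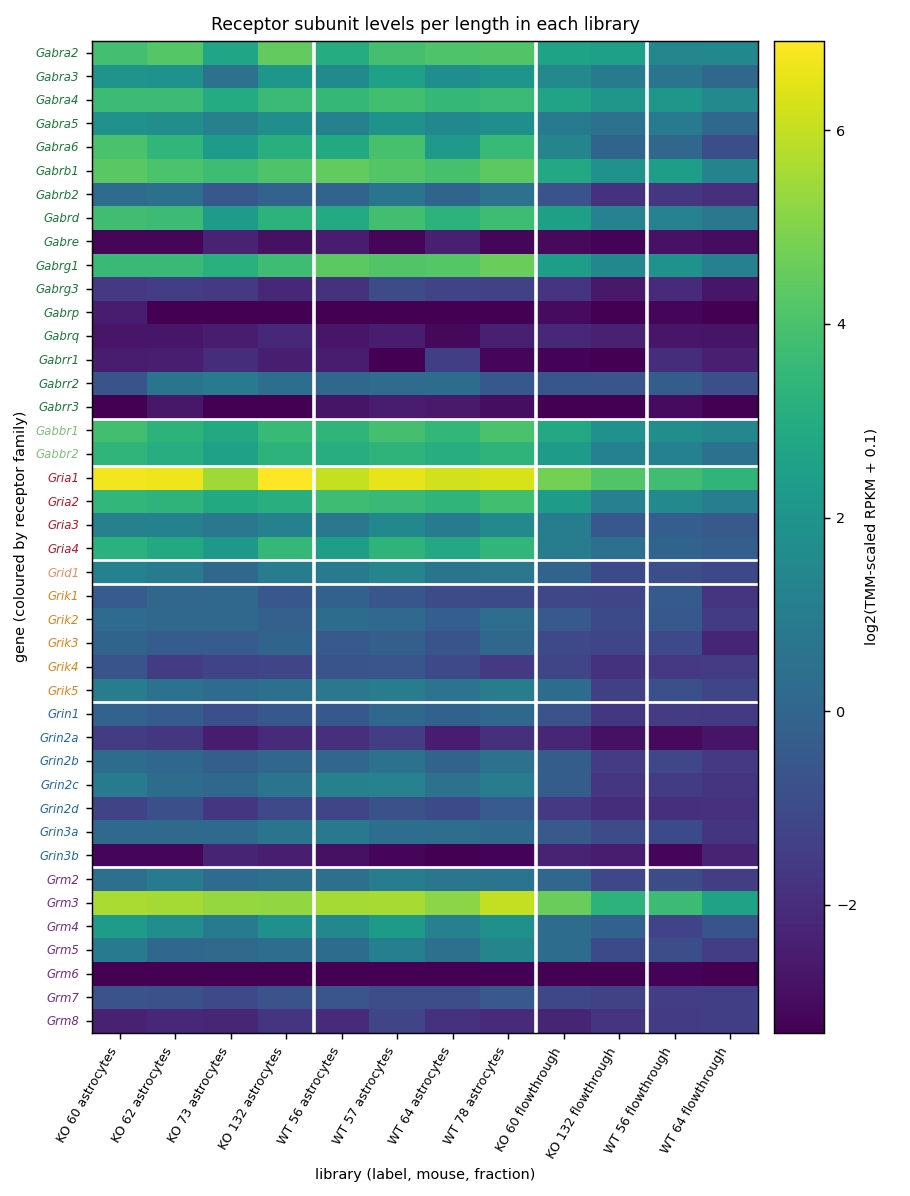
Level of 42 receptor genes (rows, coloured by family) in each of the 12 libraries (columns), as log2(RPKM + 0.1). Gria1 is the highest member in every library, Grm3 follows in astrocytes, and Grm6, Gabrp and Gabrr3 are near the floor throughout.

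The receptor genes were higher in the astrocyte fraction than in flowthrough. Of 44 members tested, 37 were higher and 0 lower (edgeR quasi-likelihood test on all 12 libraries, adjusted p under 0.05), against 49.2% of all 20997 genes called in either direction, 24.8% higher and 24.4% lower. By family the called members were 14 of 17 GABA-A subunits, 2 of 2 GABA-B subunits, 4 of 4 AMPA subunits, 2 of 2 delta subunits, 3 of 5 kainate subunits, 6 of 7 NMDA subunits and 6 of 7 metabotropic receptors. The median log2 fold change, astrocytes minus flowthrough, was 1.55 over the members and 0.0040 over all genes. In 27 members every astrocyte library lay above every flowthrough library, as 12.2% of all genes did (29.2% of all genes stood apart in either direction). A lower level in flowthrough can come from fewer cells of a type or from less RNA per cell, which bulk libraries cannot tell apart. Each mouse with both fractions showed the direction: 39 of 44 members were higher in the astrocyte library of KO 60, 43 in KO 132, 42 in WT 56 and 41 in WT 64, with median log2 ratios of 0.976, 1.74, 1.48 and 1.99 in that order of mice. As a contrast of the KO groups within the fit of all 12 libraries, 22 members were called, with a median of 1.17 (all genes 0.0209). For the WT groups 36 were called, with a median of 2.01 (all genes -0.0086). The share of all genes called in these 2 contrasts is not given here, so the counts do not show a difference particular to the members. Without KO 60 flowthrough, the flowthrough library richest in astrocyte and neuron markers, the median was 1.91 (all genes 0.0001).

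Markers of neurons moved with the members. All 10 neuron markers (Snap25, Syt1, Rbfox3 and others) were higher in the astrocyte fraction, with a median log2 fold change of 1.62, beside 1.97 for the 13 astrocyte markers, of which 13 were higher. KO astrocytes had a neuron marker sum of 1726 to 3718 CPM, WT astrocytes one of 2179.5 to 3908 CPM, KO flowthrough one of 763 to 1680 CPM and WT flowthrough one of 566 to 756 CPM, and none of the 10 was at 0. The same held for 8 of 8 markers of glutamatergic neurons (median 1.59), 8 of 8 of GABAergic neurons (1.61), 6 of 8 of cerebellar granule neurons (1.68) and 6 of 6 of Purkinje neurons (1.80). Of the oligodendrocyte markers 4 of 8 were higher (0.99), and of the precursor markers 4 were higher and 1 lower of 6 (0.67); of the neuroblast markers 3 were higher and 1 lower of 6 (0.67). The other lists ran the opposite way: 8 of 8 microglial (-3.67), 6 of 6 choroid plexus (-2.43), 6 of 6 endothelial (-1.14), 3 of 6 mural (-0.96) and 1 of 6 ependymal markers (-0.62) were lower in the astrocyte fraction. The part of neuronal RNA in the levels and differences of the receptor genes was not tested.

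**Figure D2:**
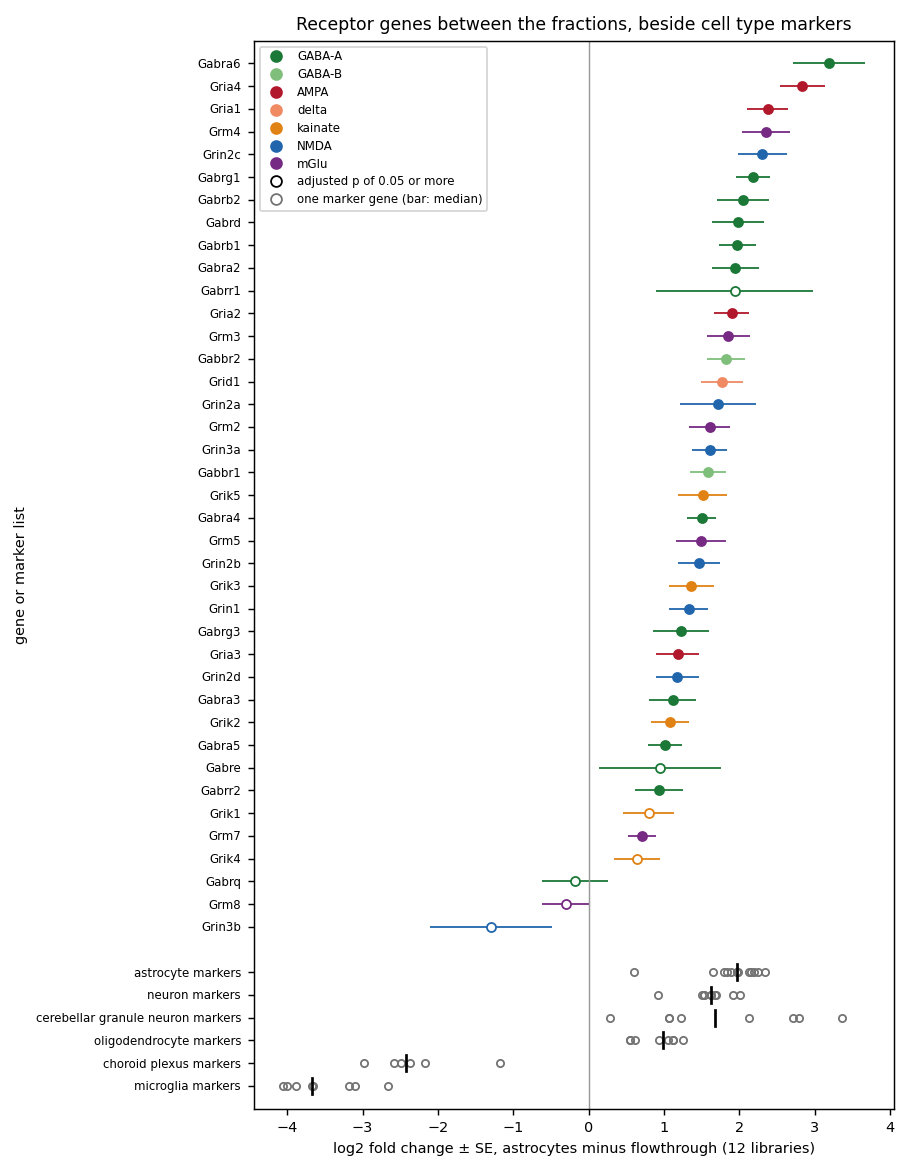
Log2 fold change ± SE between the fractions, astrocytes minus flowthrough, for 39 of the tested receptor genes (filled where called), above the marker genes of 6 cell types (open grey circles, with a bar at the median). Most receptor genes lie to the right of 0, and the tested members run from -1.30 to 3.19 with a median of 1.55. The medians of the astrocyte, neuron and microglial markers are 1.97, 1.62 and -3.67.

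The alpha subunits of the GABA-A receptor, which with a beta subunit form the GABA site, were higher in astrocytes. Gabra6, the subunit known from cerebellar granule neurons, had the largest difference of the 37 called members. It had 38.9, 26.4, 11.9 and 22.0 CPM in KO astrocytes, 18.5, 37.7, 11.1 and 29.7 CPM in WT astrocytes, 6.02 and 2.24 CPM in KO flowthrough and 2.37 and 1.11 CPM in WT flowthrough. No library of the fractions overlapped, with a log2 fold change of 3.19 ± 0.47 (adjusted p = 0.00029), but the astrocyte libraries themselves spread from 11.1 to 38.9 CPM. Parentheses after the values of the following members give the same pair of values, the log2 fold change of astrocytes minus flowthrough with its SE and the edgeR adjusted p. Gabra2 had 34.9, 44.4, 15.9 and 51.9 CPM in KO astrocytes, 19.5, 36.0, 41.2 and 41.7 CPM in WT astrocytes, 14.3 and 13.0 CPM in KO flowthrough and 6.21 and 6.33 CPM in WT flowthrough (1.95 ± 0.31, 0.00045), and KO 73 had the lowest astrocyte value. Gabra4, which joins the delta subunit in extrasynaptic receptors, had 53.3, 52.8, 32.4 and 52.2 CPM in KO astrocytes, 45.9, 58.2, 46.6 and 52.0 CPM in WT astrocytes, 25.4 and 17.1 CPM in KO flowthrough and 17.2 and 11.3 CPM in WT flowthrough (1.5 ± 0.19, 0.00011). Gabra6, Gabra2 and Gabra4 were higher in each astrocyte library than in each flowthrough library. Gabra5 and Gabra3 were less far apart. Gabra5, known from extrasynaptic receptors of the hippocampus, had 9.38, 8.55, 5.56 and 8.65 CPM in KO astrocytes, 5.68, 9.59, 7.03 and 8.92 CPM in WT astrocytes, 4.67 and 3.59 CPM in KO flowthrough and 4.72 and 2.69 CPM in WT flowthrough (1.02 ± 0.23, 0.00325). X-linked Gabra3 had 14.9, 14.6, 5.33 and 16.3 CPM in KO astrocytes, 11, 22.3, 12.6 and 15.3 CPM in WT astrocytes, 10.6 and 6.90 CPM in KO flowthrough and 5.72 and 3.78 CPM in WT flowthrough (1.11 ± 0.31, 0.0117), and here the fractions overlapped, since KO 73 astrocytes lay below 3 of the 4 flowthrough libraries.

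Of the beta subunits, which every common GABA-A receptor needs, Gabrb1 and Gabrb2 were higher in astrocytes with no overlap. Gabrb1 had 60.6, 49.5, 41.5 and 52.9 CPM in KO astrocytes, 68.5, 55.8, 47.5 and 63.0 CPM in WT astrocytes, 22.2 and 11.6 CPM in KO flowthrough and 15.8 and 7.28 CPM in WT flowthrough (1.97 ± 0.25, adjusted p = 0.0001). Gabrb2 had 7.13, 8.01, 3.69 and 5.14 CPM in KO astrocytes, 5.31, 9.38, 5.5 and 8.28 CPM in WT astrocytes, 3.20 and 1.10 CPM in KO flowthrough and 1.32 and 0.989 CPM in WT flowthrough (2.05 ± 0.34, 0.00058). The gamma subunits set where a receptor sits and how it answers to benzodiazepines. Gabrg1, the gamma subunit known from glia, had 58.3, 57.0, 43.3 and 62.8 CPM in KO astrocytes, 97.7, 83.5, 89.9 and 113 CPM in WT astrocytes, 24.4 and 12.7 CPM in KO flowthrough and 17.8 and 10.1 CPM in WT flowthrough (log2 fold change between fractions 2.18 ± 0.22, adjusted p = 3.2e-05), and its 4 WT astrocyte libraries lay above its 4 KO astrocyte libraries. Gabrg3 had 2.72, 3.13, 2.64 and 1.54 CPM in KO astrocytes, 2.22, 4.78, 3.87 and 3.58 CPM in WT astrocytes, 2.25 and 0.721 CPM in KO flowthrough and 1.56 and 0.653 CPM in WT flowthrough (1.23 ± 0.37, 0.0173), with overlap. With the mouse as a block, here always in a fit of only the mice with both fractions, the Gabrg3 call was lost (edgeR adjusted p = 0.0508).

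Gabrd, the delta subunit of extrasynaptic receptors, had 39.6, 37.4, 14.1 and 28.2 CPM in KO astrocytes, 21.7, 40.7, 27.9 and 38.5 CPM in WT astrocytes, 16.1 and 6.36 CPM in KO flowthrough and 6.35 and 4.61 CPM in WT flowthrough (1.98 ± 0.34, adjusted p = 0.00072). KO 73 astrocytes (14.1 CPM) lay below KO 60 flowthrough (16.1 CPM), and the other astrocyte libraries lay above every flowthrough library. Gabrr2, a rho subunit known best from the retina, had 1.14, 3.13, 3.67 and 2.54 CPM in KO astrocytes, 2.11, 2.29, 2.38 and 1.29 CPM in WT astrocytes, 1.18 and 1.17 CPM in KO flowthrough and 1.48 and 0.969 CPM in WT flowthrough (0.93 ± 0.32, 0.0291), with overlap, and was not called with the mouse as a block (adjusted p = 0.0823). The remaining GABA-A members were low. Gabrr1 had 0 to 0.623 CPM in astrocytes and 0 to 0.344 CPM in flowthrough, Gabre had 0.0471 to 0.449 CPM in astrocytes and 0.0361 to 0.199 CPM in flowthrough, and Gabrq had 0.0890 to 0.655 CPM in astrocytes and 0.257 to 0.648 CPM in flowthrough. None of these 3 passed the test between the fractions (adjusted p = 0.143, 0.351 and 0.756). Gabrp and Gabrr3 were too low to be tested, with at most 0.237 and 0.117 CPM in any library, where 3 counts, the floor used here, correspond to 0.0582 to 0.0775 CPM.

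Both GABA-B subunits were higher in the astrocyte fraction. Gabbr1, which binds GABA, had 109, 75.3, 57.3 and 91.4 CPM in KO astrocytes, 80.3, 114, 85.1 and 122 CPM in WT astrocytes, 55.4 and 27.3 CPM in KO flowthrough and 25.2 and 19.9 CPM in WT flowthrough (1.58 ± 0.24, adjusted p = 0.0003). Gabbr2, which couples to the G protein, had 60.9, 48.9, 33.5 and 57.2 CPM in KO astrocytes, 47.7, 59.4, 47.9 and 59.6 CPM in WT astrocytes, 28.8 and 12.8 CPM in KO flowthrough and 12.8 and 7.76 CPM in WT flowthrough (1.82 ± 0.25, 0.00019). For both genes the fractions did not overlap, and the highest flowthrough value was that of KO 60.

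The 4 AMPA subunits were all higher in astrocytes, 3 of them with no overlap. Gria1 had 642, 616, 266 and 735 CPM in KO astrocytes, 392, 567, 456 and 474 CPM in WT astrocytes, 168 and 105 CPM in KO flowthrough and 82.5 and 62.4 CPM in WT flowthrough (2.38 ± 0.27, adjusted p = 6.2e-05). Gria4, which Bergmann glia are known to express with Gria1, had 56.5, 45.2, 26.6 and 69.9 CPM in KO astrocytes, 31.2, 61.1, 43.6 and 66.0 CPM in WT astrocytes, 11.6 and 7.72 CPM in KO flowthrough and 5.41 and 4.71 CPM in WT flowthrough (2.84 ± 0.30, 4.1e-05), the second largest difference of the members. Gria2, whose edited form makes the channel nearly impermeable to calcium, had 75.6, 69.8, 51.4 and 58.8 CPM in KO astrocytes, 92.2, 85.8, 72.8 and 99.1 CPM in WT astrocytes, 35 and 14.6 CPM in KO flowthrough and 18.8 and 13.7 CPM in WT flowthrough (1.90 ± 0.23, 8.2e-05). Its 4 flowthrough libraries all lay below its lowest astrocyte library. X-linked Gria3 had 21.0, 21.2, 15.7 and 21.1 CPM in KO astrocytes, 15.5, 26.1, 17.7 and 27.2 CPM in WT astrocytes, 18.9 and 5.84 CPM in KO flowthrough and 7.17 and 6.23 CPM in WT flowthrough (1.18 ± 0.28, 0.00501), and only KO 60 flowthrough reached into the astrocyte range. The delta receptor gene Grid1, whose product binds cerebellins at synapses, had 13.3, 10.6, 6.10 and 11.4 CPM in KO astrocytes, 10.4, 14.7, 9.03 and 9.60 CPM in WT astrocytes, 5.49 and 2.40 CPM in KO flowthrough and 2.71 and 2.22 CPM in WT flowthrough (1.77 ± 0.28, 0.00042), again with no overlap.

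Kainate subunits were low in both fractions, and their median log2 fold change of 1.08 was the lowest of the 7 families. Grik2 and Grik3, which form channels alone, were higher in every astrocyte library than in any flowthrough library. Grik2 had 8.95, 8.20, 7.99 and 6.55 CPM in KO astrocytes, 9.49, 8.47, 6.14 and 9.62 CPM in WT astrocytes, 5.12 and 3.21 CPM in KO flowthrough and 5.07 and 2.06 CPM in WT flowthrough (1.08 ± 0.25, adjusted p = 0.00411). Grik3 had 7.94, 6.14, 6.03 and 8.03 CPM in KO astrocytes, 5.87, 6.83, 4.83 and 8.85 CPM in WT astrocytes, 3.43 and 3.06 CPM in KO flowthrough and 3.35 and 0.969 CPM in WT flowthrough (1.36 ± 0.30, 0.00313). Grik5, a high-affinity subunit that needs a partner, had 7.15, 5.12, 4.19 and 4.93 CPM in KO astrocytes, 5.98, 7.36, 5.30 and 7.51 CPM in WT astrocytes, 4.36 and 1.10 CPM in KO flowthrough and 1.81 and 1.33 CPM in WT flowthrough (1.51 ± 0.33, 0.00284). Its astrocyte libraries overlapped with KO 60 flowthrough alone. Grik1 had 2.16, 2.96, 3.09 and 1.86 CPM in KO astrocytes, 2.55, 1.76, 1.34 and 1.22 CPM in WT astrocytes, 1.10 and 1.06 CPM in KO flowthrough and 2.05 and 0.594 CPM in WT flowthrough, and Grik4, the other high-affinity subunit, had 1.36 to 3.31 CPM in astrocytes and 1.10 to 2.06 CPM in flowthrough. Neither passed the test (log2 fold changes 0.80 ± 0.34 and 0.64 ± 0.31, adjusted p = 0.0733 and 0.107), and both passed it with the mouse as a block (adjusted p = 0.0359 and 0.0171).

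Of the NMDA subunits, Grin1 takes part in every receptor. It had 8.17, 6.78, 4.49 and 5.81 CPM in KO astrocytes, 5.81, 9.38, 7.83 and 9.62 CPM in WT astrocytes, 4.99 and 2.07 CPM in KO flowthrough and 2.41 and 2.24 CPM in WT flowthrough (1.32 ± 0.26, adjusted p = 0.00173); an antisense gene, Grin1os, overlaps it, and whether reads were counted by strand is not stated in the labels or headers, which leaves this level uncertain. The Grin2 subunits set the kinetics of the receptor. Grin2c, known from cerebellar granule neurons and from astrocytes, had 8.81, 5.76, 5.09 and 7.34 CPM in KO astrocytes, 10.8, 11.2, 6.85 and 9.51 CPM in WT astrocytes, 3.58 and 1.06 CPM in KO flowthrough and 1.27 and 1.01 CPM in WT flowthrough (2.30 ± 0.32, 0.00021), the largest difference of the family and with no overlap. Grin2b had 27.7, 24.5, 18.6 and 23.1 CPM in KO astrocytes, 23.3, 33.3, 21.1 and 32.2 CPM in WT astrocytes, 17.7 and 6.06 CPM in KO flowthrough and 8.67 and 5.48 CPM in WT flowthrough (1.47 ± 0.28, 0.00124). Grin2a, which takes over from Grin2b in most maturing neurons, was low, with 1.35, 1.16, 0.412 and 0.740 CPM in KO astrocytes, 0.878, 1.41, 0.378 and 0.871 CPM in WT astrocytes, 0.610 and 0.198 CPM in KO flowthrough and 0.109 and 0.257 CPM in WT flowthrough (1.72 ± 0.51, 0.0155). Its fractions overlapped, as did those of Grin2d. Grin2d had 1.92, 2.77, 1.2 and 2.2 CPM in KO astrocytes, 2.01, 2.84, 2.34 and 3.88 CPM in WT astrocytes, 1.33 and 0.883 CPM in KO flowthrough and 0.923 and 1.05 CPM in WT flowthrough (1.18 ± 0.28, 0.00514). Grin3a, a glycine-binding subunit that lowers calcium flow, had 12.8, 13.0, 12.6 and 17.8 CPM in KO astrocytes, 20.6, 15.0, 14.2 and 12.8 CPM in WT astrocytes, 7.73 and 5.25 CPM in KO flowthrough and 4.90 and 2.41 CPM in WT flowthrough (1.60 ± 0.23, 0.00022). The lowest of its astrocyte libraries lay above the highest flowthrough library. Grin3b had 0 to 0.356 CPM in astrocytes and 0.0362 to 0.336 CPM in flowthrough and was not called (-1.30 ± 0.80, 0.203).

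The metabotropic receptors fall into 3 groups. Of group I, which signals through Gq and calcium release, Grm5, described in young astrocytes, had 13.9, 8.01, 8.61 and 9.2 CPM in KO astrocytes, 8.97, 16.5, 10.2 and 19.6 CPM in WT astrocytes, 9.07 and 3.17 CPM in KO flowthrough and 3.57 and 2.12 CPM in WT flowthrough (1.49 ± 0.33, adjusted p = 0.00341). KO 60 flowthrough (9.07 CPM) lay within the astrocyte range of Grm5. Of group II, which lowers cyclic AMP, Grm3 had 173, 167, 138 and 135 CPM in KO astrocytes, 165, 168, 127 and 222 CPM in WT astrocytes, 85 and 34.9 CPM in KO flowthrough and 45.6 and 21.1 CPM in WT flowthrough (1.85 ± 0.28, 0.00032). Grm2 had 6.30, 8.72, 5.30 and 6.19 CPM in KO astrocytes, 6.21, 9.29, 7.48 and 7.11 CPM in WT astrocytes, 4.61 and 1.80 CPM in KO flowthrough and 2.08 and 1.27 CPM in WT flowthrough (1.61 ± 0.28, 0.00069). Both stood apart between the fractions, and Grm3 exceeded Grm2 per length in every library. Group III holds Grm4, a receptor of cerebellar granule cell terminals, with 25.5, 17.0, 9.19 and 18.1 CPM in KO astrocytes, 14.0, 25.2, 11.3 and 18.4 CPM in WT astrocytes, 6.00 and 4.29 CPM in KO flowthrough and 1.70 and 2.81 CPM in WT flowthrough (2.35 ± 0.32, 0.00017). Grm7 had 3.08, 2.84, 2.25 and 3.0 CPM in KO astrocytes, 3.26, 2.55, 2.56 and 3.69 CPM in WT astrocytes, 2.17 and 1.82 CPM in KO flowthrough and 1.57 and 1.60 CPM in WT flowthrough (0.70 ± 0.19, 0.00865), the smallest difference among the called members. Neither overlapped. Grm8, in the same group, ran the other way without passing the test, with 0.711 to 2.70 CPM in astrocytes and 0.838 to 2.12 CPM in flowthrough (-0.30 ± 0.32, 0.463). Grm6 had at most 0.0362 CPM in any library and was not tested.

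The subunit composition within families was described as each subunit's share of the summed RPKM. Gria1 took 76.8% to 84.7% of the AMPA sum in KO astrocytes, against 73.9% to 79.6% in WT astrocytes, and 75.9% to 81.5% in KO flowthrough, against 75.4% to 76.0% in WT flowthrough. In every library, then, GluA1 made up most of the AMPA subunit RNA. Gabrb1 took 80.9% to 87.0% of the beta sum in KO astrocytes, against 80.8% to 90.0% in WT astrocytes, and 78.8% to 79.4% in KO flowthrough, against 76.6% to 82.7% in WT flowthrough. Gabrg1 made up 79.6% to 82.7% of the gamma sum in KO astrocytes and 83.5% to 90.4% in WT astrocytes, without overlap, with 77.0% to 79.1% in KO flowthrough, against 73.9% to 77.8% in WT flowthrough. Gabra6 held 15.7% to 27.2% of the alpha sum in KO astrocytes, against 10.2% to 24.9% in WT astrocytes, and 6.0% to 11.1% in KO flowthrough, against 5.1% to 7.8% in WT flowthrough. Gabra5 and Gabra3 ran the opposite way between fractions. The alpha share of Gabra5 was 5.8% to 7.7% in KO astrocytes, against 5.8% to 6.1% in WT astrocytes. It was 8.1% to 9.0% in KO flowthrough, against 11.5% to 14.7% in WT flowthrough. That of Gabra3 was 5.0% to 7.4% in KO astrocytes, against 6.8% to 9.3% in WT astrocytes. In flowthrough Gabra3 had 11.7% to 12.4% in KO, against 10.9% to 12.0% in WT. Per length, Grin2c was the largest of the Grin2 shares in astrocytes, with 40.5% to 50.7% in KO and 47.0% to 59.7% in WT astrocytes. KO flowthrough had 32.8% to 40.2% and WT flowthrough 30.9% to 32.3%. This order depended on the summed exon length, 24773 bases for Grin2b and 5037 bases for Grin2c. In CPM, which is not scaled by length, Grin2b was the higher gene, with 18.6 to 27.7 CPM in KO and 21.1 to 33.3 CPM in WT astrocytes. Grin2c had 5.09 to 8.81 CPM in KO and 6.85 to 11.2 CPM in WT astrocytes. Grm3 took 81.8% to 86.5% of the metabotropic sum in KO astrocytes, against 80.9% to 86.8% in WT astrocytes, and 79.2% to 83.5% in KO flowthrough, against 74.1% to 85.8% in WT flowthrough.

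**Figure D3:**
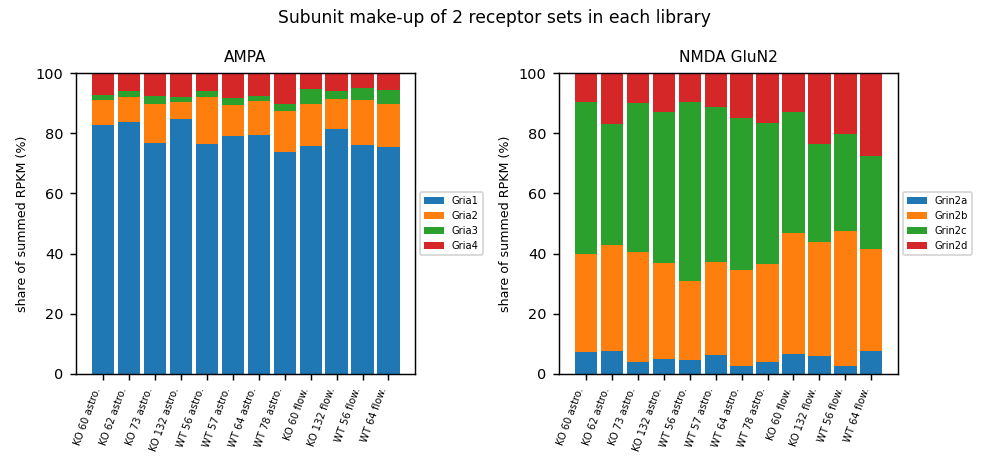
Share of each subunit in the summed RPKM of the AMPA and the Grin2 subunits (stacked bars, percent) in each of the 12 libraries. RPKM divides by exon length, and in CPM Grin2b lay above Grin2c in astrocytes. Gria1 fills most of the AMPA bar in every library, and Grin2c takes 40.5% to 50.7% in KO astrocytes and 47.0% to 59.7% in WT astrocytes, while its bars are lower in the flowthrough libraries of each genotype, at most 40.2% in KO and 32.3% in WT.

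Between the astrocyte libraries labelled KO and WT, no receptor gene passed the test. Of 41 members tested on the 8 astrocyte libraries, 0 were called by edgeR, against 0.232% of all 18527 genes (0.146% higher and 0.0864% lower). At an unadjusted p under 0.05 there were 2 members, Gabrg1 and Gria2, where 5.37% of all genes fell under it. DESeq2 called 1 member, Gabrg1 (0.988% of all genes), and limma-voom called 0. The median log2 fold change, KO minus WT, was -0.10 over the members and 0.0044 over all genes, with 13 members above 0 and 28 below. This lean was absent without KO 73. That library was the lowest of the 8 for 26 of the 41 members (25.7% of all genes), and without it the median was 0.0083, with 21 members above 0. Without both female-type libraries, KO 73 and WT 78, the median was 0.061. Medians with other single libraries left out are not given here. KO 73 was also the library with the least astrocyte and neuron marker RNA (1726 CPM of neuron markers, against 2179.5 to 3908 CPM in WT astrocytes), whose part in its receptor levels was not tested. Of the astrocyte markers 0 of 13 and of the neuron markers 0 of 10 were called between the genotypes, with medians of -0.22 and -0.07. Below 0 lay 11 of the astrocyte markers, with 2 above, and 6 of the neuron markers, with 4 above. Other cell type lists lay farther from 0, also with 0 genes called. All 8 oligodendrocyte markers (median 0.80) and all 8 microglial markers (0.55) lay above 0, and all 8 markers of glutamatergic neurons lay below 0 (-0.34). The oligodendrocyte marker sum was 24095 to 38341 CPM in KO astrocytes, against 20218 to 26560 CPM in WT astrocytes. The microglial sum was 581.5 to 2739.6 CPM in KO, against 561 to 1149.7 CPM in WT. The glutamatergic sum was 711 to 2449 CPM in KO, against 955 to 2968 CPM in WT. Camk2a made up most of the glutamatergic sum, with means of 1386 CPM in KO astrocytes and 1882 CPM in WT astrocytes. Each sum overlapped between the genotypes, and the part of these cell types in the receptor values, Gabrg1 included, was not tested.

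Gabrg1 had the smallest p. The gene (ENSMUSG00000001260) lies on chromosome 5 from 70751047 to 70842617 on the minus strand (GRCm38, as deposited). It had 58.3, 57.0, 43.3 and 62.8 CPM in KO astrocytes, against 97.7, 83.5, 89.9 and 113 CPM in WT astrocytes. All 4 KO libraries lay below all 4 WT libraries, as for 2.27% of all genes (4.03% apart in either direction), and no other member was apart in either direction. The log2 fold change was -0.79 ± 0.15 (95% interval -1.12 to -0.46, on the degrees of freedom of the edgeR test) with an edgeR adjusted p of 0.0920, so it did not pass over all genes. Over 17 alternatives the log2 fold change ran from -0.86 to -0.60 and the adjusted p from 0.000784 to 0.458, with a call in 2: DESeq2 (0.000784) and a covariate for neuron markers (0.0219, with 0.766% of all genes called). Without KO 73 and WT 78 it was -0.60 (adjusted p = 0.115). In flowthrough the gene had 24.4 and 12.7 CPM in KO and 17.8 and 10.1 CPM in WT libraries, which overlapped.

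Gabrg1 sits in a cluster of GABA-A genes on chromosome 5, and its neighbours did not pass the test. Gabra2 (from 70961057 to 71095849) had a log2 fold change of 0.10 ± 0.35 (95% interval -0.69 to 0.88). Gabra4 (from 71569734 to 71658308) had -0.08 ± 0.17 (-0.46 to 0.30) and Gabrb1 (from 71699932 to 72138389) had -0.19 ± 0.16 (-0.54 to 0.16). Adjusted p was 0.995 to 0.996 for these 3 genes. Differences between these genes were not tested.

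The members with the next smallest p did not separate the genotypes. Gria2 had 75.6, 69.8, 51.4 and 58.8 CPM in KO astrocytes, against 92.2, 85.8, 72.8 and 99.1 CPM in WT astrocytes (-0.44 ± 0.15, edgeR adjusted p = 0.654). KO 60 lay above WT 64, and the other KO libraries lay below every WT library. Grin2c had 8.81, 5.76, 5.09 and 7.34 CPM in KO astrocytes, against 10.8, 11.2, 6.85 and 9.51 CPM in WT astrocytes (-0.50 ± 0.23, 0.933). Grik1 had 2.16, 2.96, 3.09 and 1.86 CPM in KO astrocytes, against 2.55, 1.76, 1.34 and 1.22 CPM in WT astrocytes (0.56 ± 0.31, 0.972), with the highest value in KO 73. Gabrg3 had 2.72, 3.13, 2.64 and 1.54 CPM in KO astrocytes, against 2.22, 4.78, 3.87 and 3.58 CPM in WT astrocytes (-0.51 ± 0.30, 0.974). In each of these genes the genotypes overlapped. For the members with the highest levels the intervals were wide enough to hold modest changes either way: Gria1 had a log2 fold change of 0.27 ± 0.28 (95% interval -0.35 to 0.88) and Grm3 of -0.14 ± 0.17 (-0.53 to 0.24).

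**Figure D4:**
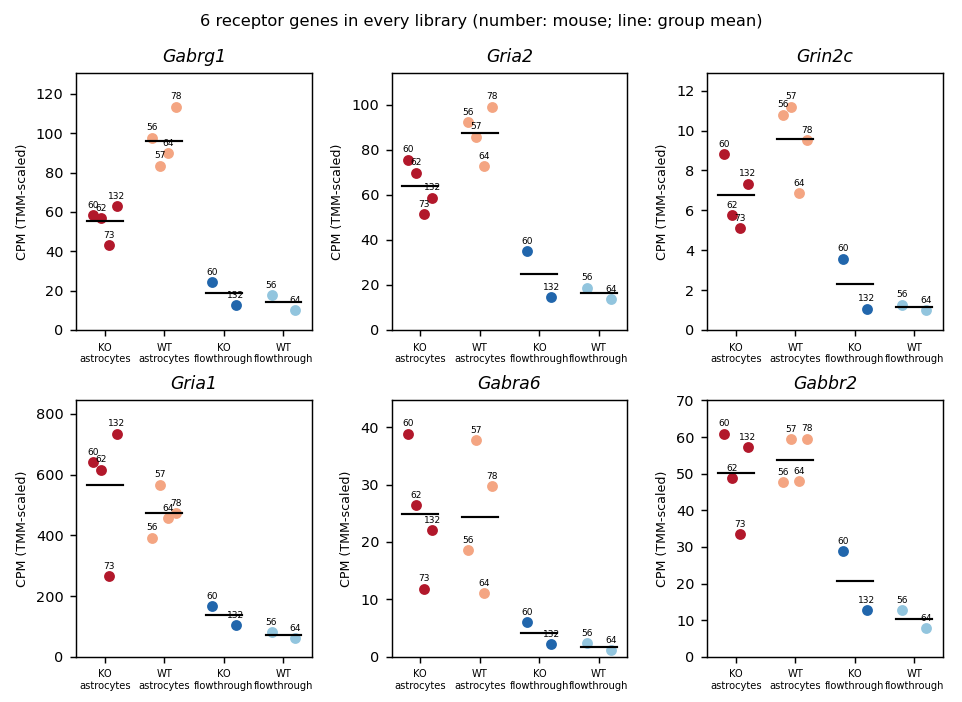
TMM-scaled CPM of 6 receptor genes in every library, by group (points, labelled by mouse; line, group mean). In the Gabrg1 panel the KO astrocyte libraries (43.3 to 62.8 CPM) lie below the WT astrocyte libraries (83.5 to 113 CPM), and KO 60 is the higher of the 2 KO flowthrough libraries in each panel.

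Between the flowthrough libraries labelled KO and WT no member passed the test either. Of 44 members, 0 were called by edgeR, against 0.00476% of 20997 genes, and DESeq2 and limma-voom called 0. At an unadjusted p under 0.05 there were 10 members, against 4.63% of all genes. Of the members 39 lay above 0, with a median log2 fold change, KO minus WT, of 0.71 (all genes 0.037). KO 60 was the highest of the 4 libraries for 37 of the 44 members (31.6% of all genes). Without it, which leaves 1 KO flowthrough library, the median was 0.085, with 24 members above 0 and 20 below. Medians with other single flowthrough libraries left out are not given here. In the same library the neuron marker sum was 1680 CPM, against 763 CPM in KO 132 flowthrough, 756 CPM in WT 56 flowthrough and 566 CPM in WT 64 flowthrough. All 10 neuron markers and 12 of 13 astrocyte markers had log2 fold changes above 0 (medians 0.85 and 0.49), and their part in the receptor differences was not tested. With 2 libraries each, 12 members were apart and higher in KO and 3 lower, where 17.1% of all genes were apart and higher and 16.5% lower (33.6% in either direction). Gabbr2 had the smallest p, with 28.8 and 12.8 CPM in KO flowthrough and 12.8 and 7.76 CPM in WT flowthrough (1.01 ± 0.38, edgeR adjusted p = 1). Grm4 had 6.00 and 4.29 CPM in KO flowthrough and 1.70 and 2.81 CPM in WT flowthrough (1.19 ± 0.48, 1). In both genes KO 60 was the highest library. Gabbr1 had 55.4 and 27.3 CPM in KO flowthrough and 25.2 and 19.9 CPM in WT flowthrough (0.87 ± 0.36, 1). Gabrr1 went the other way with very few reads, 1 and 0 counts in KO flowthrough and 19 and 10 counts in WT flowthrough.

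**Figure D5:**
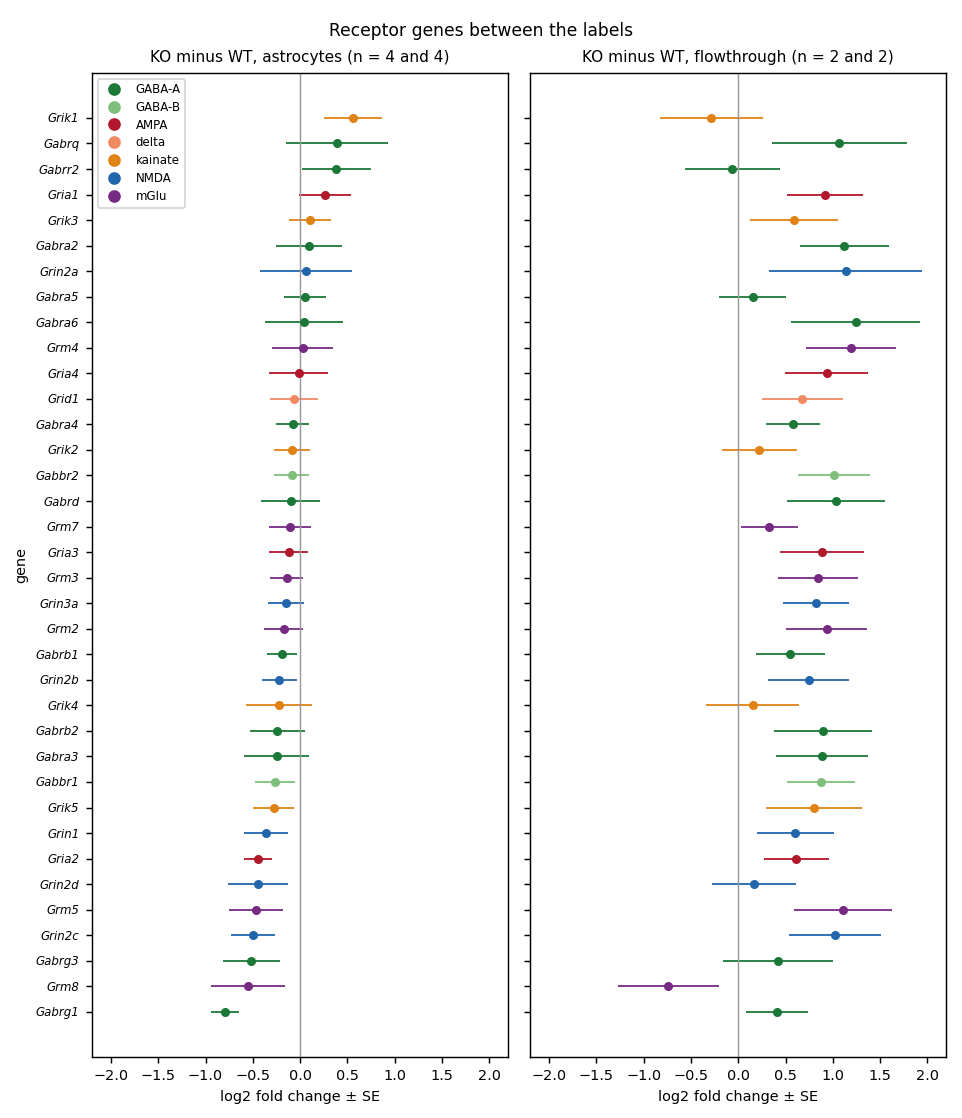
Log2 fold change ± SE, KO minus WT, of the same 36 receptor genes in astrocytes (left, 4 libraries per genotype) and in flowthrough (right, 2 per genotype). In astrocytes the members scatter around 0 with Gabrg1 at -0.79 ± 0.15, and in flowthrough most lie above 0; no member passed the test.

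Whether the genotype difference itself differed between the fractions was tested as an interaction. No member passed (edgeR 0 of 44, DESeq2 0, limma-voom 0, against 0.0% of all genes by edgeR), and 8 had an unadjusted p under 0.05 (3.94% of all genes). The median interaction, the astrocyte difference minus the flowthrough difference on the log2 scale, was -0.95. It was -0.24 without KO 60 flowthrough, and -0.39 with the mouse as a block in the 4 mice that had both fractions, where the median of all genes was -0.12. The smallest p was that of Gabrg1, with an interaction of -1.21 ± 0.40 (adjusted p = 0.934). Without KO 60 flowthrough it was -0.65, and with the mouse as a block -1.04 (adjusted p = 0.615). Grin2c (-1.53 ± 0.59), Gabbr1 (-1.15 ± 0.44), Gria2 (-1.07 ± 0.42) and Grm5 (-1.58 ± 0.63) followed, each with an adjusted p of 0.934. With the block Grin2c had -0.95, Gabbr1 -0.54, Gria2 -0.81 and Grm5 -0.74. Since the fractions of 4 mice share animals and the 3 comparisons share libraries, these values are not independent of those above.

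Genes whose products work with the receptors, in 6 lists, were also compared between the fractions. Beside their counts, 24.8% of all genes tested were called higher and 24.4% lower by edgeR, with a median log2 fold change of 0.0040. The median of the 10 neuron markers was 1.62, and the part of neuronal RNA in these lists was not tested. Of the AMPA auxiliary subunits, which set trafficking and gating, 15 of 15 were higher in astrocytes (median log2 fold change 1.64). Cacng5, a stargazin relative, had 30.7 ± 9.70 CPM in KO astrocytes, 31.4 ± 4.17 CPM in WT astrocytes, 5.53 ± 0.740 CPM in KO flowthrough and 4.83 ± 1.13 CPM in WT flowthrough, with a difference of 2.59 ± 0.22 (edgeR adjusted p = 1.4e-05). Its relative Cacng4 had a difference of 1.5 ± 0.18, Shisa9 of 1.89 ± 0.27 and Shisa6 of 1.69 ± 0.25. Of the kainate and NMDA auxiliary and D-serine genes 5 of 5 were higher (1.45). Dao, the oxidase that breaks down D-serine, had 8.46 ± 3.17 CPM in KO astrocytes, 9.41 ± 2.76 CPM in WT astrocytes, 0.826 ± 0.0977 CPM in KO flowthrough and 0.454 ± 0.279 CPM in WT flowthrough, with a difference of 3.85 ± 0.39 (adjusted p = 3.1e-05). Srr, which makes D-serine, had 0.90 ± 0.20, Slc1a4, a neutral amino acid transporter, 1.45 ± 0.24, and the kainate receptor partner Neto2 1.72 ± 0.29. Genes of both synthesis and breakdown of D-serine were higher in the astrocyte fraction.

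Of the excitatory scaffolds 14 of 16 were higher (1.35), among them the adhesion protein gene Nlgn1 (2.00 ± 0.23), Shank3 (1.61 ± 0.23), Dlgap1 (1.55 ± 0.25) and Homer3 (1.22 ± 0.22). Of the GABA receptor scaffolds and auxiliary subunits 7 were higher and 1 lower of 12 (1.13). Gphn, the gephyrin scaffold, had a difference of 0.96 ± 0.13, Slitrk3 of 1.41 ± 0.23 and Nlgn2 of 1.30 ± 0.23. The 1 lower gene was Kctd12, an auxiliary subunit of the GABA-B receptor, with 28.8 ± 10.1 CPM in KO astrocytes, 19.4 ± 2.96 CPM in WT astrocytes, 45.8 ± 15.3 CPM in KO flowthrough and 37.3 ± 4.29 CPM in WT flowthrough (-0.81 ± 0.21, adjusted p = 0.00877). Of the clustering ligands 10 of 11 were higher (1.51), with Cbln1, a cerebellin, at 2.88 ± 0.40, Lrrtm1 at 1.46 ± 0.25, Nptx1 at 1.80 ± 0.35 and Lrrtm2 at 0.95 ± 0.19. Of the genes of group I metabotropic and GABA-B signalling 10 were higher and 1 lower of 13 (0.91). The 2 inositol trisphosphate receptors of this list differed in direction. Itpr1, also one of the Purkinje markers, was higher in astrocytes (1.59 ± 0.24), and Itpr2, the form known from astrocytes, was lower, with 25.5 ± 1.33 CPM in KO astrocytes, 28.1 ± 3.57 CPM in WT astrocytes, 71.1 ± 14.1 CPM in KO flowthrough and 55.4 ± 6.81 CPM in WT flowthrough (-1.23 ± 0.11, adjusted p = 1.9e-05). Rgs7 (2.03 ± 0.26) and Gnao1 (1.76 ± 0.29) were higher.

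Between the genotypes 0 genes of these 6 lists were called, in astrocytes and in flowthrough (edgeR). In astrocytes the smallest p in the GABA scaffold list was that of Kctd12, with 28.8 ± 10.1 CPM in KO and 19.4 ± 2.96 CPM in WT astrocytes (SD, n = 4 each; 0.58 ± 0.25, adjusted p = 0.906). Nptx2, a pentraxin that gathers AMPA receptors, had 1.94 ± 0.516 CPM in KO and 3.64 ± 2.13 CPM in WT astrocytes (-0.89 ± 0.43, 0.960), and Cacng4 had 23.4 ± 4.63 CPM in KO and 29.8 ± 4.83 CPM in WT astrocytes (-0.34 ± 0.18, 0.972). The medians of the 6 lists ran from -0.32 to -0.05 in astrocytes (all genes 0.0044) and from 0.381 to 0.955 in flowthrough (all genes 0.037). In the summed level of each list KO 73 was the lowest astrocyte library. In flowthrough KO 60 was the library high in neuron and astrocyte markers. The part of these 2 libraries in the medians was not tested.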

How the data were processed

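Brain cells were dissociated with collagenase, astrocytes were bound to anti-ACSA-2 magnetic beads and the unbound cells kept as flowthrough, and RNA from Trizol lysates was cleaned on columns and made into libraries with SMARTer reagents, per the labels' protocols. Per the file headers, the authors deposited for each library a raw count, a CPM and an RPKM value for 41388 genes. The deposited CPM values equal counts per total count within 5.1e-11, and the deposited RPKM values equal CPM divided by the length column in kilobases, within 9.1e-11. The GRCm38 build, STAR 2.5.1a, featureCounts 1.4.6-p5, Subread and bcl2fastq are named in the submitters' processing notes. The sources used here give no settings for them, including the strand setting and the treatment of reads shared by paralogs, so related subunit genes could share reads.

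Only the deposited counts entered the tests (edgeR 4.0.16, R 4.3.3; quasi-likelihood, two-sided, TMM, filterByExpr by group, Benjamini-Hochberg over all genes, called at adjusted p under 0.05). KO and WT astrocytes were compared in a fit of 8 libraries (18527 genes; residual degrees of freedom, 6). The fractions, the genotypes in flowthrough and the interaction were compared in a fit of all 12 libraries by 4 groups (20997 genes; residual degrees of freedom, 8). Log2 fold changes are estimate ± standard error, KO minus WT or astrocytes minus flowthrough. Printed CPM and RPKM levels were computed from the counts on 1 TMM scale over 12 libraries. The filter kept 44 of 47 members in 12 libraries (not Gabrp, Gabrr3 and Grm6) and 41 in 8 (also not Gabre, Gabrr1 and Grin3b). The script was tested on simulated data.

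Gene identifiers were matched to symbols by a name table (40254 matched). The members, gene lists and markers were chosen with earlier results of these data known. Per-library values follow a rule: members called in any comparison, otherwise the 5 smallest p per comparison, the 10 highest in astrocytes per length, and up to 4 genes per partner list and comparison; some genes that meet it are not reported here and not drawn. In 4 mice both fractions were sequenced, so the mouse number pairs their libraries by animal. Their deviations from the group means correlated with r = 0.352 (mouse 60), -0.00664 (132), 0.155 (56) and 0.251 (64). Alternatives were RLE or library-size scaling, other filters and thresholds, DESeq2 1.42.0, limma-voom (limma 3.58.1), a neuron marker covariate, the mouse as block or random effect, other library sets and each library left out. The labels give no separate culture or litter, and no molecular identifiers are named, so the floor of 3 counts (0.0582 to 0.0775 CPM) covers counting error only. Total counts were 38.7 to 51.6 M per library.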

Additional observations from a re-analysis of the deposited data

Results flagged for a closer look

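In 5 of 78 groups of 4 astrocyte libraries tested (39 members in 2 genotypes), 1 library lay far from the other 3 by Dixon's gap test; chance gives about 1 in 20 groups. In 4 of the 5 the library was KO 73. Gabra3 had 5.33 CPM in KO 73, against 14.6 to 16.3 CPM in the other KO astrocytes. Gabra4, an alpha subunit of extrasynaptic receptors, had 32.4 CPM in KO 73, against 52.2 to 53.3 CPM in the other KO astrocytes. Gria3 had 15.7 CPM in KO 73, against 21.0 to 21.2 CPM in the other KO astrocytes. Gabrr1 went the other way, with 0.356 CPM in KO 73, against 0.166 to 0.190 CPM in the other KO astrocytes, which are a few reads each. Grin3a was the fifth, with 17.8 CPM in KO 132, against 12.6 to 13.0 CPM in the other KO astrocytes. KO 73 also had the lowest astrocyte marker sum of the 8 astrocyte libraries (11385 CPM, against 17543 to 24099 CPM in the others). Its microglial marker sum was the highest of them (2739.6 CPM, against 561 to 1149.7 CPM). It was also the only female-type library of the KO astrocytes (3 counts of Ddx3y), and Gabra3 and Gria3 are X-linked. The part of these traits in the receptor values was not tested.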

How the results depend on the processing

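Every alternative kept 0 members lower in the astrocyte fraction, and the number called higher was 33 to 39 in all but 1 setting. That setting was the contrast of the KO groups within the fit of all 12 libraries, with 22, against 36 for the WT groups. The cause was not tested, and the share of all genes called in each setting is not given here. Leaving out 1 library gave 33 to 38, an adjusted p under 0.01 gave 33 and one under 0.10 gave 38. With the mouse as a replicate block, which the same animals warrant, only the libraries of the 4 mice with both fractions were fitted. In that fit 37 were called in the fraction comparison (Gabrg3 and Gabrr2 lost, Grik1 and Grik4 gained). The interaction had 0 called, and its median over the members was -0.39. No other call among the members changed, and the block and the smaller set of libraries cannot be told apart. With the mouse as a random effect in all 12 libraries (limma-voom) 39 were called. Library-size scaling in place of TMM shifted the median of all genes to -0.143 and that of the members to 1.39, with 36 called. No log2 fold change of a named member that passed changed sign. Gabrr2 lost its call in 9 settings, Gabrg3 in 4, and Gabra3 and Grin2a in 3 each. Between the genotypes in astrocytes 1 member, Gabrg1, was called by DESeq2, 1 with the neuron marker covariate and 1 at an adjusted p under 0.10; leaving out each library in turn gave 0 every time. In flowthrough and for the interaction every setting gave 0. With 2 flowthrough libraries per genotype, and 1 left where a library was dropped, that lone library is assumed to vary like the other groups. Gabrq, Grin3b, Gabre and Gabrr1, at under 1 CPM, had standard errors of 0.44, 0.80, 0.81 and 1.04 between the fractions, so modest differences there were not detectable at this depth.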
